A study of Mus musculus with 8 samples.

Results

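The levels of 10 transcription factors of the Müllerian duct and the endometrial gland, Pax8, Pax2, Foxa2, Foxa1, Sox17, Emx2, Lhx1, Msx1, Msx2 and Foxj1, were followed in mouse models of endometrial cancer. They were picked by gene symbol from a list drawn up with earlier results of these data known, and all 10 were among the 24419 gene symbols of the count table. Bulk RNA was sequenced from 4 models named TPM, TPMCa, TPMR1 and TPK, with 2 libraries each. Uterus organoids from mice that express Cas9 and EGFP from the ubiquitous CAG promoter were edited in culture and transplanted into the uterus of nude mice. All models carried an sgRNA against Trp53. Myc cDNA was added in TPM, TPMCa and TPMR1 but not in TPK. TPMCa additionally carried a cDNA of Pik3ca with the E545K mutation, and TPMR1 an sgRNA against Pik3r1. The labels describe organoids, whereas the methods of the study describe tumor tissue from 2 mice per model taken about 2 months after transplantation, which can hold cells of the host uterus. No animal ages were used here.

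The Müllerian duct of the female embryo gives rise to the oviduct, the uterus and the upper vagina. Pax2, Pax8, Lhx1 and Emx2 are needed to form or keep the duct, and Msx1, Msx2 and several Wnt genes take part in its patterning. In the adult uterus, Foxa2 is a marker of the glandular epithelium and is needed for gland development, Foxa1 is a related pioneer factor of many hormone-responsive epithelia, Sox17 acts in endometrial epithelium and also in endothelium, and Foxj1 drives the program of motile cilia in ciliated epithelial cells. PAX8 protein is a common diagnostic stain for tumors of Müllerian origin.

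Library totals ranged from 15748396 to 26943611 counts. Myc was at 153 and 92.7 CPM, which are counts per 1000000 library counts scaled by the trimmed mean of M values (TMM), in TPK and between 323 and 3070 CPM in the 6 libraries with the Myc cDNA. Pik3r1 lay at 100 and 51.3 CPM in TPMR1 and between 78.1 and 188 CPM in the other models, so its RNA level did not separate the edited model from the rest. Pik3ca was at 89.9 and 83.2 CPM in TPMCa and between 60.9 and 80.1 CPM in the other models. Replicates stood far apart in TPMR1, where 2706 of the 15875 genes tested differed by more than 4-fold between both libraries, against 749 in TPM, 1294 in TPMCa and 972 in TPK. In bulk RNA, fewer cells of a type and less RNA per cell cannot be told apart.

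The label of an epithelial tumor was checked against 12 markers of epithelium, among them Epcam, Cdh1, Krt7, Krt8 and Krt18. Their summed level was 7023 and 4155 CPM in TPM and 4679 and 6260 CPM in TPK. It was 94.1 and 27.4 CPM in TPMCa and 8.44 and 30.5 CPM in TPMR1. The epithelial markers were therefore far lower in all 4 TPMCa and TPMR1 libraries but not absent, with Krt8 at 26.1 CPM in TPMCa replicate 1, and Esrp1, an epithelial splicing factor, was at 0 counts in both TPMR1 libraries. Against TPM, the mean epithelial sum was 92.0-fold lower in TPMCa and 287-fold lower in TPMR1. These values are to be read beside each result on the gland factors below, where most are not repeated.

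Pax8, Pax2 and Foxa2 were present in TPM and TPK tumors and at or near 0 in TPMCa and TPMR1 tumors. Foxa1 followed them in TPM, TPK and TPMR1, but 1 of 2 TPMCa libraries held more Foxa1 than both TPM libraries. Emx2 was present in all 8 libraries, Sox17 and Msx1 overlapped between most models and Foxj1 between some, Msx2 differed by 550 counts to 0 counts between the TPMR1 replicates, and Lhx1 was close to absent throughout. An adjusted p under 0.05 by edgeR's quasi-likelihood test with Benjamini-Hochberg adjustment over the 15875 genes tested is named a call below. Of the 10 factors, 9 passed the filter on low counts and Lhx1 did not. Pax8, Pax2 and Foxa2 had at most 5 counts in any TPMCa or TPMR1 library and passed through their TPM and TPK libraries. For these genes a call could be lower against TPM or higher in TPK, with little room for the other direction. The same holds for their libraries lying apart without overlap. The shares of all genes given below are not limited to genes that passed in this way.

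**Figure D1:**
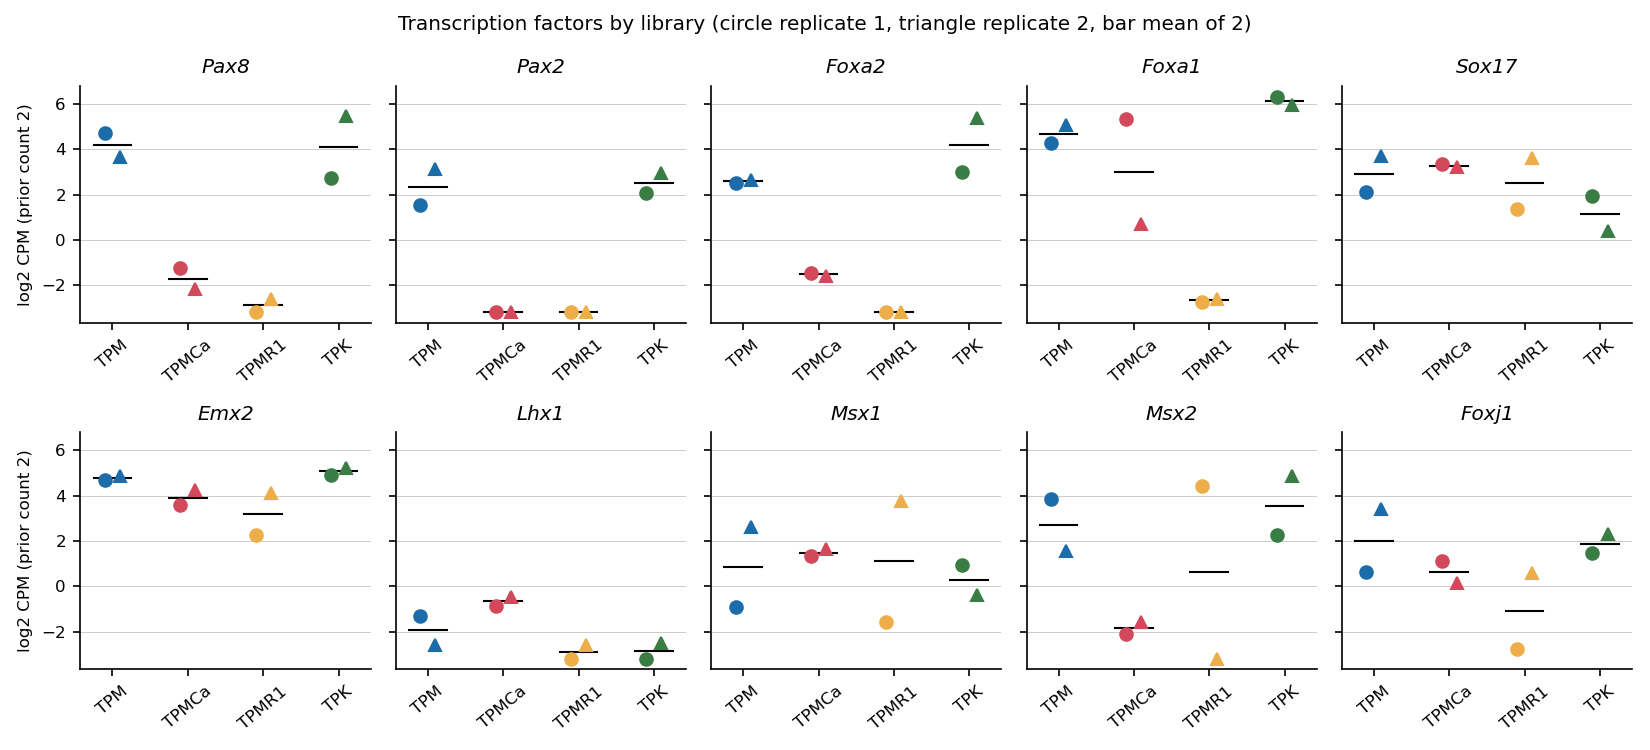
Level of each of the 10 transcription factors in each library, as log2 CPM with a prior count of 2 on the vertical axis, by model on the horizontal axis (circle replicate 1, triangle replicate 2, bar the mean of 2 libraries). Pax8, Pax2 and Foxa2 sit above 1 on this scale in every TPM and TPK library and below -1 in every TPMCa and TPMR1 library, whereas Emx2 stays above 2 in all 8.

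The sequences just before the starts of Pax8, Pax2 and Foxa2 are shown because the levels of these 3 genes moved together, and that of Foxa1 because it departed from them in a single library. The windows come from RefSeq on GRCm38.p6, which held entries for 8 of the 10 genes, all but Sox17 and Foxj1, and each runs 250 bases up to the start, read 5′ to 3′ on the strand of the gene. Pax2 and Foxa2 have 3 RefSeq starts each, and the start nearest to the GENCODE M21 start of the gene was taken. The Foxa1 window was shortened by 10 bases at its 3′ end that GENCODE places in an exon, and the rest of it lies inside the gene as GENCODE draws it, whose start is 805 bases from the RefSeq start. Capitals mark matches, on either strand, to any of 8 short motifs, some of which overlap. The letters TATAAA were searched for the core promoter element that the general initiation machinery binds. The letters CCAAT were searched for the box bound by the NF-Y complex in many housekeeping and tissue genes. GC boxes of Sp1-type zinc finger factors were searched as GGGCGG, and the palindromic E-box that Myc and its partner Max bind was searched as CACGTG. Forkhead proteins such as Foxa1, Foxa2 and Foxj1 prefer cores like TGTTTAC, while the core read by Sox and Tcf proteins was searched as ACAAAG. The homeobox core of Msx proteins was searched as TAATTG, and the core of nuclear receptor elements as TGACCT.
Pax8, chr2:24475600-24475849, minus strand: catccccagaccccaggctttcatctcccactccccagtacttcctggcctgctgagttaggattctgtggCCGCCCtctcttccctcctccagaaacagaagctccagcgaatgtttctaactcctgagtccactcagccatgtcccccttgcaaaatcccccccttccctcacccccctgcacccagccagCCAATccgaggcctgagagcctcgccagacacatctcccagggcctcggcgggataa
Pax2, chr19:44755502-44755751, plus strand: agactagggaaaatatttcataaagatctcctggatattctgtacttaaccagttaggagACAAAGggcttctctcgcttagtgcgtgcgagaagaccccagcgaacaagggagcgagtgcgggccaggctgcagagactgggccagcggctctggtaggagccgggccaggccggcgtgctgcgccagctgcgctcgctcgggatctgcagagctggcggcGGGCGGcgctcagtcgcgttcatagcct
Foxa2, chr2:148046970-148047219, minus strand: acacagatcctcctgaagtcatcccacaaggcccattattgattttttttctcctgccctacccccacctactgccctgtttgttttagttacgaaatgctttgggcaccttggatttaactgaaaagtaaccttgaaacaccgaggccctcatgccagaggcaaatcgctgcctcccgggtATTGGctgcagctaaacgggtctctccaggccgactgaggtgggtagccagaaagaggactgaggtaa
Foxa1, chr12:57546122-57546361, minus strand: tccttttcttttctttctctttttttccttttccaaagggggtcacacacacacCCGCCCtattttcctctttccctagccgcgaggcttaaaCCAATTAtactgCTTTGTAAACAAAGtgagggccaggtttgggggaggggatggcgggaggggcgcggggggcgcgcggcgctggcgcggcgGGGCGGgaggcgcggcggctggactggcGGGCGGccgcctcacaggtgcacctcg

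The windows of Pax8 and Foxa2 each held a CCAAT box, 57 and 68 bases before the start, a motif found in 33.8% of all 32851 RefSeq windows of this length. The windows of Pax8 and Pax2 each held a GC box, which 32.7% of all windows hold. No motif searched was shared by the printed windows of all 3 genes, although the windows of the other Foxa2 starts hold a GC box. The Foxa1 window carried a run in which a forkhead motif, found in 3.17% of all windows, overlaps matches to the Sox and Tcf core on both strands, and a homeobox motif, found in 7.17%, that overlaps its CCAAT box. The printed windows of Pax2 and Foxa1 held 20 and 21 CpG dinucleotides, against 6 in Pax8 and in Foxa2 and a median of 6 over all windows. These matches are letters in a window and were not tested for binding.

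Pax8, a paired-box factor that the uterine epithelium keeps from the duct, lies on chromosome 2 of GRCm38 (mm10) from 24420560 to 24475599 on the minus strand. It had 438 and 215 counts in the TPM libraries, 5 and 2 in TPMCa, 0 and 1 in TPMR1, and 115 and 668 in TPK. The lowest TPM or TPK library, TPK replicate 1 at 6.57 CPM, was above the highest TPMCa or TPMR1 library, TPMCa replicate 1 at 0.317 CPM. The mean level in TPM was 19.3 ± 9.95 CPM (SD, n = 2), and that in TPK was 25.3 ± 26.5 CPM (SD, n = 2). The mean in TPMCa was 90.3-fold lower than in TPM, where the summed epithelial markers were 92.0-fold lower. Against TPM, the log2 fold change of Pax8 was -9.30 ± 1.56 (SE) in TPMR1, a call (edgeR adjusted p = 0.0260), and -6.47 ± 1.30 (SE) in TPMCa, just short of the threshold (edgeR adjusted p = 0.0503). Since TPMR1 held a single Pax8 count in both libraries together, the fold there is imprecise, and the pooled counts gave a ratio of 841 with a 95% interval of 150 to 33265 that covers counting error only. Part of the exons of Pax8, 367 bases, overlaps Gm13415 on the other strand, and the sources used here do not state whether counting used strand.

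Pax2, the paired-box factor of the duct and the kidney, on chromosome 19 from 44756045 to 44837871 on the plus strand, was detected only in TPM and TPK. It had 47 and 149 counts in TPM and 71 and 114 counts in TPK, and 0 counts in all 4 TPMCa and TPMR1 libraries. Taking 3 counts per library as the most that a count of 0 allows, Pax2 was at least 31.8-fold lower in TPMCa and at least 40.2-fold lower in TPMR1 than in TPM. Both differences were calls (edgeR adjusted p = 0.0485 and 0.0356). Its fitted log2 fold changes of -9.68 in both rest on the prior count and give no bound.

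Foxa2, the forkhead factor that marks uterine glands, on chromosome 2 from 148042877 to 148046969 on the minus strand, had 93 and 108 counts in TPM and 137 and 634 in TPK. It had 4 counts in each TPMCa library and 0 in each TPMR1 library. The groups did not overlap, and Foxa2 was the steadiest of the gland factors between the TPM replicates, at 5.88 ± 0.408 CPM (SD, n = 2). The mean was 24.7-fold lower in TPMCa than in TPM, with a log2 fold change of -4.59 ± 0.99 (SE) that was not a call (edgeR adjusted p = 0.0728). In TPMR1, Foxa2 was at least 41.7-fold lower than in TPM, a call (edgeR adjusted p = 0.0258). Foxa2 was 4.21-fold higher in mean CPM in TPK than in TPM, with both TPK libraries above both TPM libraries, and this was not a call (log2 fold change 2.07 ± 0.84 (SE), edgeR adjusted p = 0.694).

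Foxa1, the paralog of Foxa2, on chromosome 12 from 57540628 to 57546916 on the minus strand, had the highest level per kilobase of exon of the 10 factors when averaged over all 8 libraries, an order carried by TPK, while Emx2 led in TPM and TPMR1. It had 321 and 586 counts in TPM, 1384 and 943 in TPK, and 1 count in each TPMR1 library. The TPMCa libraries split, with 631 counts or 39.9 CPM in replicate 1 and 27 counts in replicate 2, a 26.6-fold difference between replicates of a single model. TPMCa replicate 1 thus lay above both TPM libraries and below both TPK libraries, while its Pax8 and Foxa2 were near 0. The log2 fold change against TPM was -0.35 ± 1.14 (SE) in TPMCa, which was not a call (edgeR adjusted p = 0.883), and -8.97 ± 1.81 (SE) in TPMR1, a call (edgeR adjusted p = 0.0400). From the 2 pooled TPMR1 counts the ratio was 584, with a 95% counting interval of 161 to 4830. Between TPMR1 and TPMCa the log2 fold change was -8.62 ± 1.80 (SE), which was not a call with edgeR (adjusted p = 0.364).

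Relative to the 12 epithelial markers, the factors did not all keep their proportion. Pax8 stood at 3.75 and 2.96 CPM per 1000 CPM of summed epithelial markers in TPM, at 3.36 and 4.06 in TPMCa and at 1.40 and 7.03 in TPK, so its ratio in TPMCa lay inside the range of the other models although it rests on 5 and 2 counts. Foxa1 stood at 2.75 and 8.06 per 1000 in TPM and 16.9 and 9.93 in TPK, but at 424 and 54.8 in TPMCa, above all TPM and TPK libraries. Foxa2 was at 2.69 and 8.11 per 1000 in TPMCa, from 4 counts each, against 0.797 to 6.67 in TPM and TPK. In TPMR1, from 1 count each, Foxa1 was at 4.57 and 1.82 per 1000, inside and below the range of TPM. Pax8 was at 0 and 1.82 per 1000 in TPMR1, and Foxa2 at 0 in both TPMR1 libraries. Pax2 was at 0.403 and 2.05 per 1000 in TPM, 0.867 and 1.20 in TPK, and 0 in all TPMCa and TPMR1 libraries. At the low epithelial sums of TPMCa and TPMR1, a count of 0 cannot settle whether the Pax2 ratio differed. Emx2 was at 128 to 682 per 1000 in TPMCa and TPMR1 and at 3.66 to 6.93 in TPM and TPK. The part of epithelial content in the levels of the gland factors was not tested beyond these ratios.

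**Figure D2:**
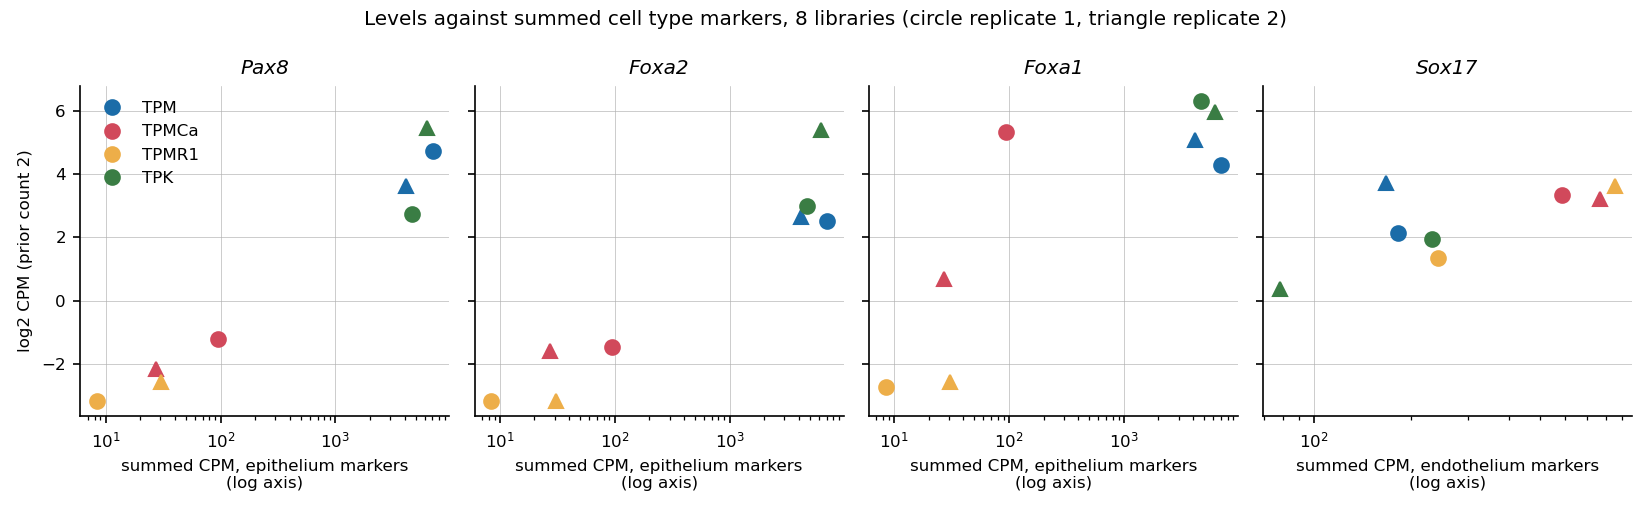
Level of Pax8, Foxa2, Foxa1 and Sox17 (vertical axis, log2 CPM with a prior count of 2) against the summed CPM of epithelial or endothelial markers (horizontal axis, log scale) in the 8 libraries (circle replicate 1, triangle replicate 2). Libraries with under 100 CPM of epithelial markers have Pax8 and Foxa2 below -1 on the log2 scale. For Foxa1, TPMCa replicate 1, at 94.1 CPM of epithelial markers, lies above both TPM libraries and below both TPK libraries.

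The comparison of TPK with the mean of TPMCa and TPMR1 gave the same 4 genes in the opposite direction, and it shares the TPMCa and TPMR1 libraries with the comparisons above. Pax8 was higher in TPK by a log2 fold change of 8.27 ± 1.06 (SE), a call (edgeR adjusted p = 0.00541). Pax2 was at least 36.2-fold higher in TPK, a call (edgeR adjusted p = 0.00979). Foxa2, with 4 counts in each TPMCa library and none in TPMR1, was a call (edgeR adjusted p = 0.00432), and its pooled counts gave a TPK level 229 times that of TPMCa and TPMR1, with a 95% counting interval of 116 to 533. Its fitted fold rests partly on the prior count. Foxa1 was higher by a log2 fold change of 6.08 ± 1.16 (SE), a call (edgeR adjusted p = 0.0193). That value averages TPMCa and TPMR1 on the log scale, where the 1 count in each TPMR1 library weighs heavily. In mean CPM Foxa1 was 6.80-fold higher in TPK, and its pooled counts gave a ratio of 8.38 with a 95% counting interval of 7.69 to 9.15. The Foxa1 means were 70.6 CPM in TPK and 20.7 CPM in TPMCa. Emx2 had both TPK libraries above all 4 TPMCa and TPMR1 libraries, with a log2 fold change of 1.38 ± 0.50 (SE) that was not a call (edgeR adjusted p = 0.116). All TPK libraries lay above all TPMCa and TPMR1 libraries for these 5 and for Foxj1, 6 of 9 factors tested, against 22.4% of all genes. The 4 calls of 9 stand against 10.3% of all genes tested called higher and 4.06% called lower in this comparison. Without TPK replicate 2, Pax8 and Foxa2 were the only calls among the 10 factors, and without TPK replicate 1 these and Pax2, where 3.23% and 5.1% of all genes were called. Over the fits that left out 1 library at a time, the log2 fold change ran from 1.75 to 8.83 for Msx2 and from 1.05 to 1.99 for Emx2.

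Between TPMCa and TPM, 1 of the 9 factors tested was called lower, Pax2, against 3.02% of all genes tested, and none was called higher, against 0.466%. All libraries of TPMCa lay below those of TPM for Pax8, Pax2, Foxa2, Emx2 and Msx2, 5 of 9 factors, against 32.2% of all genes tested. The single call depended on the libraries in the fit. It was lost without either TPM, either TPMCa or either TPK library, whereas Pax8, Pax2 and Foxa2 were all called without TPMR1 replicate 1 and likewise without TPMR1 replicate 2. Over all genes, these fits called 0.226% to 1.38% in the first case and 9.86% and 9.67% in the second. DESeq2 called Pax8, Pax2, Foxa2 and Msx2 lower, where it called 16% of all genes in either direction.

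Between TPMR1 and TPM, 4 of the 9 factors tested, Pax8, Pax2, Foxa2 and Foxa1, were called lower, against 4.5% of all genes tested, and none was called higher, against 1.08%. All TPMR1 libraries lay below all TPM libraries for these 4 and for Emx2 and Foxj1, 6 of 9 factors, against 28.5% of all genes. The count of calls fell to 0 without TPM replicate 1, without TPM replicate 2 and without TPMR1 replicate 1, and to Pax8 and Foxa2 without either TPK library. Calls over all genes were then 0.98%, 1.78% and 4.36% in the first 3 of these fits, and 2.1% and 1.91% without TPK replicate 1 and replicate 2. Without TPMR1 replicate 2, Foxa1 was replaced by Emx2 among the 4 calls, and without either TPMCa library Foxa2 was not called. A fit on the TPM and TPMR1 libraries alone called none of them, and 0.353% of all genes. The comparisons of TPMCa and of TPMR1 share the TPM libraries.

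No factor was called between TPK and TPM, where 0% of all genes tested were called higher and 0% lower by edgeR, with 1138 genes at an unadjusted p under 0.05 and 240 genes called by DESeq2. Likewise none was called between TPMR1 and TPMCa, with 0% higher and 0% lower by edgeR, 1867 genes at an unadjusted p under 0.05 and 772 called by DESeq2, which called Foxa1. In the test of any difference among the 4 models, Foxa2 (edgeR adjusted p = 0.0209), Pax8 (edgeR adjusted p = 0.0254) and Pax2 (edgeR adjusted p = 0.0366) were called and Foxa1 was not (edgeR adjusted p = 0.0647), against 7.32% of all genes. These 3 calls were all lost without TPM replicate 1, without TPM replicate 2 and without TPK replicate 2, where 2.15%, 2.35% and 1.01% of all genes were called. Foxa1 alone was called without either TPMCa library (2.49% and 2.71% of all genes), and Pax8 and Foxa2 without TPK replicate 1 (1.91%). Without a TPMR1 library the 3 were called together with Msx2 or Emx2, against 10.4% and 19.1% of all genes. The median log2 fold change of the 9 factors tested was -1.94 in TPMCa and -3.07 in TPMR1 against TPM, and 3.58 in TPK against the mean of TPMCa and TPMR1, where the medians over all genes tested lay between -0.01 and 0.03. Setting the genes at 0 counts to their bounds leaves these medians as they are, since the bounds lie on the same side of them. Each median is the value of a single gene, Foxj1 against TPM and Msx2 in the last comparison, and moved with the libraries. Without TPM replicate 2 it was -0.75 in TPMCa and -1.24 in TPMR1, and without TPMCa replicate 1 it was -4.11 in TPMCa. In TPMR1 it was -8.26 and -7.02 without replicate 1 and without replicate 2 of that model. In TPK it was 5.95 and 1.75 in TPK without TPMR1 replicate 1 and without TPK replicate 2. TMM scaling assumes that most genes do not differ, and with DESeq2 size factors or library size alone each comparison had the same number of calls, although library size alone called Pax8 in place of Pax2 in TPMCa against TPM. Library size alone shifted the median of all genes to -0.11 in TPK against TPM and to -0.13 in TPK against the mean of TPMCa and TPMR1.

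**Figure D3:**
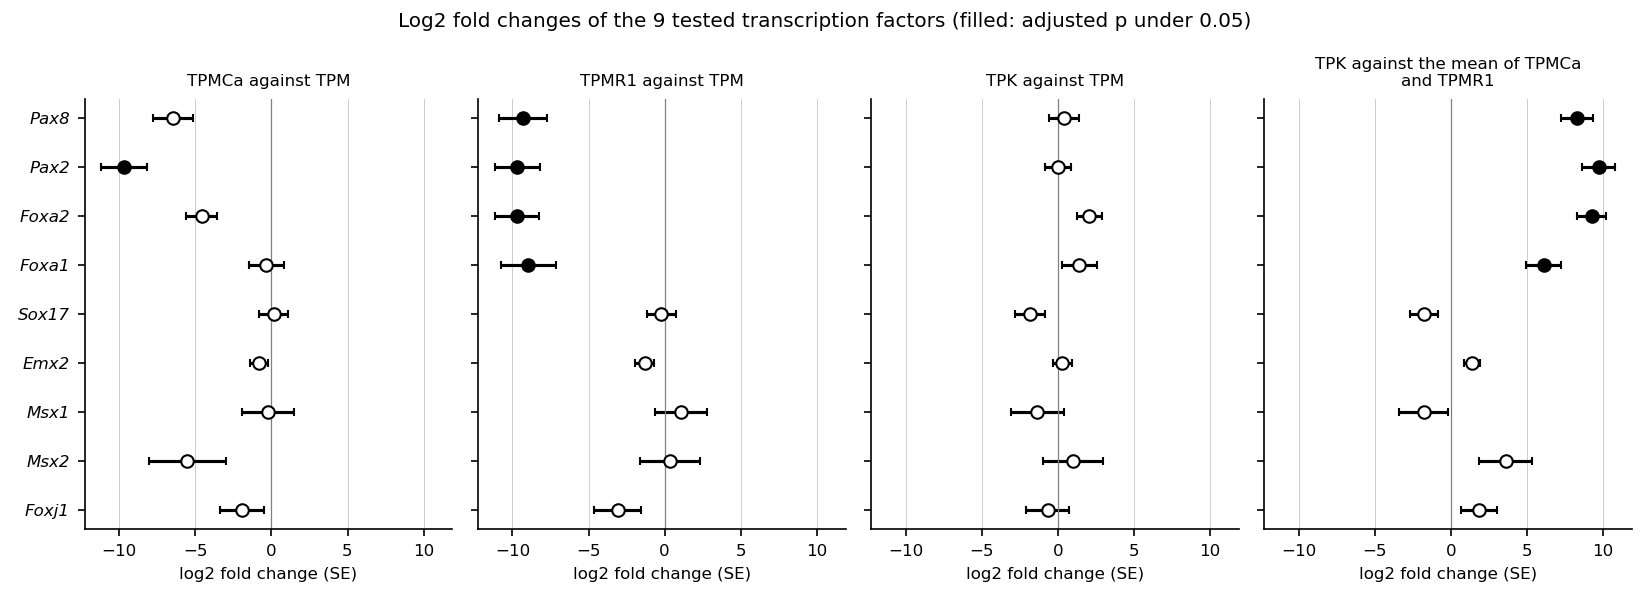
Log2 fold change with its standard error (horizontal axis) of the 9 factors tested in 4 comparisons, from edgeR (filled circles, adjusted p under 0.05). The filled circles are Pax2 in TPMCa against TPM, Pax8, Pax2, Foxa2 and Foxa1 in TPMR1 against TPM, none in TPK against TPM, and the same 4 genes on the positive side in TPK against the mean of TPMCa and TPMR1.

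Emx2, a homeobox factor needed for the urogenital ducts, on chromosome 19 from 59458372 to 59465357 on the plus strand, was the most evenly expressed of the 10. It was at 25.7 and 28.8 CPM in TPM, 12.0 and 18.7 CPM in TPMCa, 4.63 and 17.2 CPM in TPMR1, and 30.0 and 37.2 CPM in TPK. Both TPM and both TPK libraries lay above all TPMCa and TPMR1 libraries, but by far less than for Pax8. The log2 fold changes against TPM were -0.83 ± 0.61 (SE) in TPMCa and -1.32 ± 0.61 (SE) in TPMR1, neither a call (edgeR adjusted p = 0.452 and 0.258). Emx2 stayed at 120 counts or more in the libraries where Pax2 had none. Its antisense neighbour Emx2os, which overlaps 264 bases of its exons, had 9 to 210 counts per library in the same table, and reads in the overlap cannot be assigned without strand.

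Sox17, an HMG-box factor of endometrial epithelium and of vessels, on chromosome 1 from 4490931 to 4497354 on the minus strand, had 71 and 228 counts in TPM and 158 and 164 in TPMCa. It had 63 and 221 counts in TPMR1 and 65 and 18 in TPK, where the levels were 3.71 and 1.19 CPM. The ranges of TPM, TPMCa and TPMR1 overlapped, and both TPK libraries lay below both TPM libraries without a call (log2 fold change -1.82 ± 0.99 (SE), edgeR adjusted p = 0.736). Sox17 in TPMCa lay inside the range of the TPM libraries. In TPMCa epithelial markers were low and the summed level of 10 endothelial markers was 588 and 767 CPM, against 182 and 167 CPM in TPM. The endothelial sum was 241 and 857 CPM in TPMR1 and 232 and 78.3 CPM in TPK, and in both of these models the library with more endothelial RNA held more Sox17, whereas in TPM and TPMCa it held less. Per 1000 CPM of endothelial markers Sox17 was at 10.1 to 17.0 in all TPMCa, TPMR1 and TPK libraries, and at 23.4 and 78.0 in TPM. The part of endothelium in the Sox17 level was not tested. Sox17 overlaps Gm37587 on the other strand over 804 bases.

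Sox17 belongs with Sox7 and Sox18 to the SoxF group, whose members act in vessels. Sox18 was at 11.8 and 11.1 CPM in TPM, 8.04 and 26.2 CPM in TPMCa, 11.3 and 43.9 CPM in TPMR1, and 16.6 and 4.35 CPM in TPK. In all 4 models Sox18 was higher in the replicate that held more endothelial RNA, though by little in TPM. Sox17 was so in TPMR1 and TPK only. Sox7 was at 59.6 and 60.3 CPM in TPM and between 1.12 and 37.1 CPM in the other 3 models. None of the 3 was called in any comparison.

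Msx1 and Msx2, homeobox factors that pattern the duct and act in uterine receptivity, lie on chromosome 5 from 37820485 to 37824583 and on chromosome 13 from 53466884 to 53473074, both on the minus strand. Msx1 had 7 and 104 counts in TPM, 38 and 54 in TPMCa, 6 and 242 in TPMR1, and 32 and 10 in TPK. Msx2 had 236 and 49 counts in TPM, 2 and 4 in TPMCa, 550 and 0 in TPMR1, and 82 and 436 in TPK. In TPMR1 the paralogs were opposite, with Msx2 at 21.2 CPM and Msx1 at 0.231 CPM in replicate 1, and Msx2 at 0 and Msx1 at 13.4 CPM in replicate 2. In TPM and TPK, too, the library with more Msx2 held less Msx1. Msx2 was 48.7-fold lower in mean CPM in TPMCa than in TPM, with a log2 fold change of -5.54 ± 2.53 (SE) that was not a call (edgeR adjusted p = 0.257). Msx2 was called higher in TPMR1 than in TPMCa when TPMR1 replicate 2 was left out, and the remaining TPMR1 library was then assumed to vary like the other groups. With all libraries the log2 fold change between TPMR1 and TPMCa was 5.87 ± 2.55 (SE), which was not a call (edgeR adjusted p = 0.439).

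Lhx1, a LIM homeobox factor of the forming duct, on chromosome 11 from 84518284 to 84525535 on the minus strand, had at most 11 counts in any library. It had 5 and 1 counts in TPM, 7 and 11 in TPMCa, 0 and 1 in TPMR1, and 0 and 1 in TPK. TPMCa held the most, but the gene did not pass the filter on low counts and was not tested, and a level of this size lies near the floor of 3 counts. Its antisense neighbour Lhx1os had 0 to 3 counts.

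Foxj1, the regulator of motile cilia, on chromosome 11 from 116330704 to 116335399 on the minus strand, had 24 and 182 counts in TPM, 33 and 18 in TPMCa, 1 and 25 in TPMR1, and 46 and 74 in TPK. The TPM replicates differed by 7.20-fold, and the groups overlapped except that both TPMR1 libraries lay at or below 1.39 CPM and both TPM libraries at or above 1.44 CPM, and that both TPK libraries lay above all TPMCa and TPMR1 libraries. The log2 fold change in TPMR1 against TPM was -3.07 ± 1.54 (SE), which was not a call (edgeR adjusted p = 0.291). Of 28 further genes of motile cilia, 20 were tested, and only Trp73, a p53-family factor of multiciliated cells that squamous and other epithelia also use, was called lower in TPMCa and in TPMR1 against TPM (edgeR adjusted p = 0.0195 and 0.0196). The call of Trp73 stands against 3.02% of all genes tested called lower in TPMCa and 4.5% in TPMR1. Against the mean of TPMCa and TPMR1, Trp73, Cfap43 and Rsph1 were called higher in TPK, 3 of 20, against 10.3% of all genes tested. Tppp3 held the most counts of the cilia genes, at 1.74 to 24.5 CPM, and was not called. Sntn, a cilium tip gene, was at 0 counts in all 8 libraries, and the summed cilia genes ranged from 30.8 CPM in TPMR1 replicate 1 to 103 CPM in TPM replicate 2, which also held the most Foxj1.

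Compared per kilobase of exon, with levels averaged over the 8 libraries, the order was Foxa1 at 8.85 CPM per kilobase, Emx2 at 7.26, Foxa2 at 3.26, Msx2 at 2.74, Pax8 at 1.85, Sox17 at 1.47, Foxj1 at 1.14, Msx1 at 1.13, Pax2 at 0.529 and Lhx1 at 0.0471. Each of these genes ranged over the libraries by more than the gap to its neighbours in the order, except that Lhx1, at 0.150 CPM per kilobase at most, lay below the mean of all others. In TPM alone, Emx2 at 9.08 ± 0.733 (SD, n = 2) and Foxa1 at 7.94 ± 3.01 CPM per kilobase (SD, n = 2) were above Pax8 at 3.19 ± 1.64 (SD, n = 2) and Foxa2 at 2.48 ± 0.172 (SD, n = 2), and the first pair did not differ beyond its spread. In TPK, Foxa1 led at 21.2 ± 3.60 CPM per kilobase (SD, n = 2), above Emx2 at 11.2 ± 1.68 (SD, n = 2).

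Among paralogs of the 10 factors, Foxa3, the third FOXA gene, followed the pattern of Foxa2 at a lower level. It had 12 counts in each TPM library, 0 in each TPMCa library, 6 and 1 in TPMR1, and 81 and 264 in TPK. It was called higher in TPK than in the mean of TPMCa and TPMR1 (edgeR adjusted p = 0.00718), where the fitted fold rests partly on the prior count. Msx3, with at most 35 counts, was the other paralog called in that comparison (edgeR adjusted p = 0.0361). Thus 2 of the 5 paralogs tested were called, against 10.3% of all genes tested called higher. Pax5, the paralog of Pax2 and Pax8 known from B cells, had 12 and 95 counts in TPMCa, at most 4 counts elsewhere, and no call.

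Of 18 other genes of Müllerian duct patterning in the table, 17 were tested. Gata3 was called lower in TPMR1 (log2 fold change -5.43 ± 0.97 (SE), edgeR adjusted p = 0.0291), and higher in TPK than in the mean of TPMCa and TPMR1 (edgeR adjusted p = 0.0122). Wnt7a, the ligand of uterine luminal epithelium, had 69 and 221 counts in TPM, 3 and 26 in TPK and 0 elsewhere, with no call against TPM (edgeR adjusted p = 0.0867 in TPMCa and 0.0697 in TPMR1). Amhr2, the receptor of anti-Müllerian hormone on duct mesenchyme, was present in all 8 libraries at 1.38 to 20.3 CPM and had no call. The median log2 fold change of the 17 genes was 0.22 in TPMCa and -0.80 in TPMR1 against TPM, where it was -1.94 and -3.07 for the 9 factors.

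Of 19 genes of uterine glands, 12 were tested. Muc1, the mucin of luminal and glandular surfaces, was called lower in TPMCa and TPMR1 than in TPM (log2 fold change -6.46 ± 0.61 (SE) and -6.15 ± 0.60 (SE), edgeR adjusted p = 0.00760 and 0.00522). Ltf, lactotransferrin, an estrogen-responsive secretory product of the mouse uterus, was at 2277 and 1387 CPM in TPM, 58.8 and 4.67 CPM in TPMCa, 0.501 and 4.67 CPM in TPMR1, and 8453 and 6823 CPM in TPK, and was called lower in TPMR1 (edgeR adjusted p = 0.0325). Cxcl15, Ltf, Prom1, Muc1 and Klf5 were called higher in TPK than in the mean of TPMCa and TPMR1, 5 of 12, against 10.3% of all genes tested. The secretory gland genes Prss28, Prss29 and Ttr were at 0 counts in all 8 libraries, and Spink1, listed for the former symbol Spink3, had 3 counts in TPM replicate 1 and 0 elsewhere. Lgr5, a marker of gland stem cells, went another way, with 208 and 102 counts in TPMCa, 25 and 91 in TPM and 1 and 4 in TPMR1, without a call.

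Other lists gave the cell types around these factors. Epcam, the epithelial adhesion molecule, was at 313 and 392 CPM in TPM, 5.001 and 3.11 CPM in TPMCa, 0.810 and 0.389 CPM in TPMR1, and 322 and 527 CPM in TPK. All 12 epithelial markers were called lower in TPMR1 than in TPM and 9 of 12 in TPMCa, against 4.5% and 3.02% of all genes tested. All 12 were called higher in TPK than in the mean of TPMCa and TPMR1, against 10.3% of all genes. Of 8 squamous markers, 7, all but Trp63, were called lower in TPMCa and likewise in TPMR1, and 8 higher in TPK than in that mean. The same shares of all genes apply to these squamous calls. No marker of endothelium, fibroblasts and uterine stroma, smooth muscle, macrophages, mesothelium or renal tubule and thyroid was called by edgeR in any comparison. The sums of the fibroblast list ranged from 1102 to 17257 CPM, those of smooth muscle from 36.2 to 863 CPM, those of macrophages from 316 to 4680 CPM, those of mesothelium from 10.7 to 94.3 CPM and those of renal tubule and thyroid from 1.33 to 14.98 CPM. The ovarian follicle and steroid cell list summed to 5020 and 547 CPM in TPMR1 and to at most 28.4 CPM elsewhere, and Nr5a1, the steroidogenic master regulator, was called higher in TPMR1 than in TPM (edgeR adjusted p = 0.0234). TPMR1 replicate 1, with the highest ovarian sum, is the library with 550 Msx2 counts and the lowest Emx2 and Foxj1 levels, and the part of ovarian or stromal tissue in these levels was not tested.

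**Figure D4:**
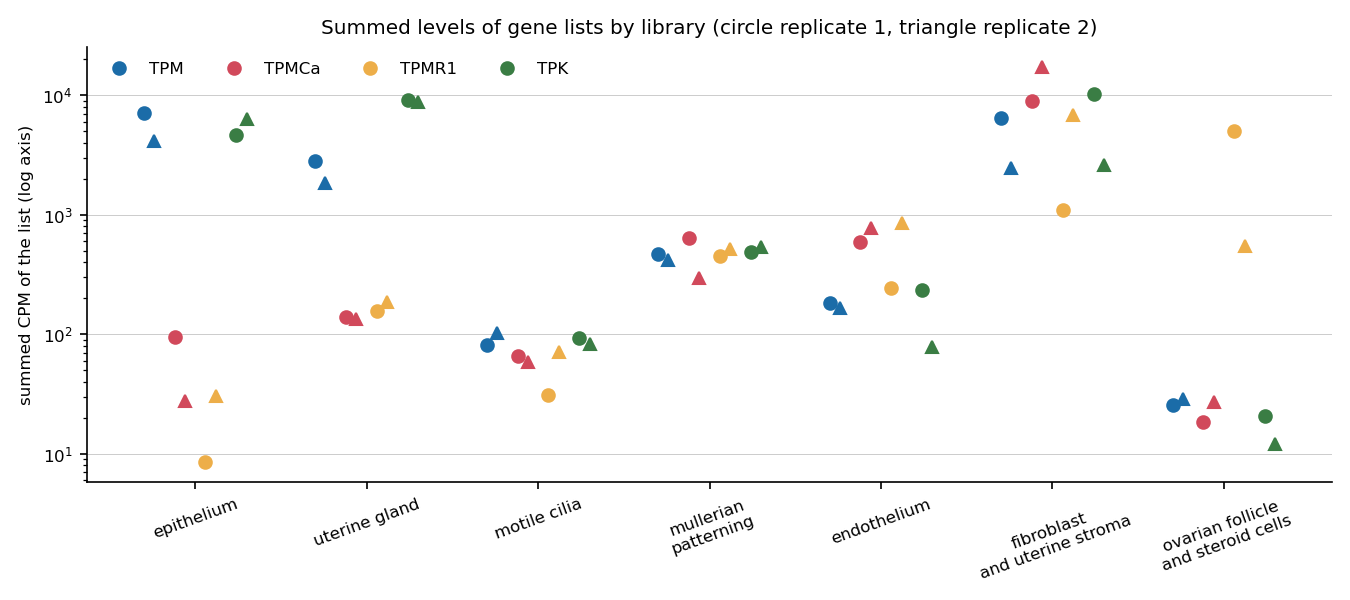
Summed CPM of 7 gene lists (horizontal axis) in each of the 8 libraries (vertical axis, log scale, circle replicate 1, triangle replicate 2). Epithelium runs from 4155 to 7023 CPM in TPM and TPK and from 8.44 to 94.1 CPM in TPMCa and TPMR1. The uterine gland list runs from 1852 to 9034 CPM in TPM and TPK and from 134 to 184 CPM in TPMCa and TPMR1. Within it, Ltf alone is at 8453 and 6823 CPM in TPK, and Esr1 is at 141 and 132 CPM in TPMR1. The ovarian list reaches 5020 and 547 CPM in TPMR1 alone.

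The genes most like each factor were ranked by Pearson's r of log2 CPM over the 8 libraries among 11710 genes, as a description, since the libraries fall into separate groups that set most of such an r. For Pax8 they were Pkp4, Zfp7 and Gstt3 (r = 0.991, 0.990 and 0.989), for Pax2 Cx3cl1, Muc4 and Cln3 (r = 0.988, 0.987 and 0.986), and for Foxa2 Gstt3, Tmbim6 and Socs6 (r = 0.990, 0.988 and 0.986). An r over 0.9 was common for these 3 factors, with 536, 522 and 559 genes above it, but held for 68 genes with Foxa1, whose nearest were Sys1, Ltbp2 and Riok3 (r = 0.991, 0.977 and 0.969). For Emx2 it held for 248 genes, led by Lama3, a laminin chain of epithelial basement membrane, Dnajb5 and Cxxc5 (r = 0.983, 0.983 and 0.982). Sox17 was near to Psrc1 and Ranbp1 (r = 0.975 for each), Msx2 to Hs6st1 and Klhdc8a (r = 0.972 and 0.968) and Foxj1 to Chil1, Nbl1 and Osbpl10 (r = 0.969, 0.969 and 0.953). Msx1 had the fewest such genes, 6, led by 1700094D03Rik, Nusap1 and Agap1 (r = 0.940, 0.921 and 0.917).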

How the data were processed

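Polyadenylated RNA was sequenced as paired ends. Per the labels and the study's methods, the authors aligned reads to mm10 with STAR and deposited raw counts per gene symbol. The counting tool, annotation and strand setting are not given in the sources used here. The deposited normalized signal equals the counts divided by a size factor per library and was only checked. TPMS in the column headings was taken as TPM. From the counts, edgeR 4.0.16 (R 4.3.3) fitted a quasi-likelihood model to all 8 libraries with TMM scaling and a filter on low counts by model (15875 of 24419 genes), and DESeq2 1.42.0 served as an alternative. Called genes had a Benjamini-Hochberg adjusted p under 0.05. The script was tested on simulated data. Lengths and positions are from GENCODE M21. The p-values rest on the spread between the 2 libraries of a model, estimated over all 4 models together. The study describes 2 mice per model. The rule named all 10 factors, their paralogs, list genes called in the test of any difference, the most counted related genes and the 3 nearest genes of each factor; other list genes were named after their values were seen. Members and lists were chosen with earlier results of these data known. Results on some genes, engineered genes among them, are not reported here. Of the symbols, 25 had turned into dates and 4109 genes had no count.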

Additional observations from a re-analysis of the deposited data

How the results depend on the processing

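Calls were recomputed with DESeq2 (Wald test, or a likelihood ratio test for any difference), with DESeq2 size factors or library size alone in edgeR, with at least 10 counts in total, with no filter on low counts, on only the models compared, with a replicate block, and without each library in turn. In TPMCa against TPM, 1 factor was called, Pax2, against 4 with DESeq2 (Pax8, Pax2, Foxa2 and Msx2), 2 with no filter (Pax8 and Pax2), 3 on only the models compared (Pax8, Pax2 and Foxa2) and Pax8 in place of Pax2 with library size alone. Over all genes, these alternatives called 16%, 3.76%, 8.35% and 3.55% in that order. In TPMR1 against TPM, 4 were called, against 0 on only the models compared, where 0.353% of all genes were called. In TPMR1 against TPMCa, 0 were called, against 1 with DESeq2 (Foxa1), which called 4.86% of all genes. TPK against the mean of TPMCa and TPMR1 kept the same 4 calls in each alternative that left out no replicate. The share of all genes called there ran from 9.39% on only the models compared to 28.4% with DESeq2. TPK against TPM had 0 calls throughout.

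The labels number the replicates alike in all models, but the deviations of same-numbered libraries did not correlate (r between -0.0688 and -0.0082), so the numbers were not taken as pairs. With a replicate block, 0 factors were called in TPMCa against TPM, 2 in TPMR1 against TPM (Pax8 and Foxa2) and 1 in the test of any difference (Foxa2). Over all genes, 2.28%, 3.51% and 3.97% were called in these with the block. The log2 fold change changed sign for Msx1 in TPMCa (0.68) and in TPK (0.0020) against TPM and for Msx2 in TPMR1 against TPM (-0.0079). Library size alone turned Pax2 in TPK against TPM to -0.12, a change of sign of a value near 0.

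Without 1 library at a time, the calls ranged from 0 to 3 in TPMCa against TPM, 0 to 4 in TPMR1 against TPM, 0 to 1 in TPMR1 against TPMCa, 2 to 5 in TPK against the mean and 0 to 4 for any difference. Fold changes that changed sign in these fits were in no case calls with all libraries. In TPMCa against TPM their log2 ranges were -4.11 to 0.60 for Foxa1, -0.43 to 1.16 for Sox17, -1.12 to 2.66 for Msx1 and -2.74 to 0.092 for Foxj1. In TPMR1 against TPM they were -1.82 to 0.78 for Sox17, -3.74 to 3.996 for Msx1 and -10.17 to 1.94 for Msx2. In TPK against TPM they were -1.55 to 1.18 for Pax8, -0.57 to 1.03 for Pax2, -2.26 to 1.55 for Msx1, -0.86 to 2.56 for Msx2 and -1.48 to 1.37 for Foxj1. In TPMR1 against TPMCa they were -1.97 to 0.36 for Sox17, -1.72 to 0.17 for Emx2, -3.50 to 2.31 for Msx1 and -4.64 to 6.86 for Msx2. In TPK against the mean, Msx1 ran from -2.71 to 0.64. With 2 libraries per model the causes of these changes were not tested, and counts of 5 or fewer per library limit the folds of Pax8, Pax2 and Foxa2 in TPMCa and TPMR1.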

Other observations

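The Hox genes that set the position along the Müllerian duct differed widely between replicates. Hoxa9, known from the oviduct, was at 156 and 30.0 CPM in TPMCa and 74.8 and 1.06 CPM in TPMR1, against 6.32 and 5.37 CPM in TPM and 2.51 and 1.19 CPM in TPK. Hoxa10 and Hoxa11, known from the uterus, were highest in the same libraries, at 105 and 45.6 CPM in TPMCa replicate 1 and at 88.4 and 30.5 CPM in TPMR1 replicate 1. None of them was called by edgeR in any comparison. TPMCa replicate 1 is the library with 631 Foxa1 counts and TPMR1 replicate 1 that with 550 Msx2 counts.

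Esr1, the estrogen receptor, was not low where the gland factors were at 0, with 141 and 132 CPM in TPMR1 against 30.1 and 50.9 CPM in TPM and no call. Pgr, the progesterone receptor, ranged from 0.308 CPM in TPMR1 replicate 1 to 51.5 CPM in TPMCa replicate 2.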
